A study of Mus musculus with 2 samples.

Results

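The BCL2 family decides whether a stressed or starved cell opens the outer membrane of its mitochondria and dies. The 10 genes described here were chosen by name as core members of that family, Bcl2, Bcl2l1, Mcl1, Bcl2l11, Bid, Bad, Bbc3, Pmaip1, Bak1 and Bax. Rows of the array named 9 of them, each by 1 row that named no other gene, out of 30142 genes named on the array in all. Bax was not analysed here.

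Gene expression was profiled in Vγ6 γδ T cells sorted by flow cytometry from the thymus of newborn C57BL/6 mice (0 days old). These cells carry a γδ T cell receptor with the Vγ6 chain, arise around birth and can make interleukin 17A. They came from wild-type mice (WT) or from mice without the MHC class II molecules that show peptides to CD4 T cells (MHC class II KO). The sources used here do not give the class II gene that was disrupted, the number of animals behind an array or any pooling of them. The comparison asked how the transcriptome of Vγ6 cells differs when MHC class II is missing.

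Guardians such as BCL-2, BCL-XL and MCL-1 hold the membrane closed by binding the killers of the family. BH3-only proteins sense stress or loss of growth signals and occupy the guardians or switch on the effectors, and the effectors BAX and BAK form the pores. In T cell development the guardians are used in turn. Mature T cells and those that receive interleukin 7 signals carry much BCL-2, while double positive thymocytes carry little BCL-2 and rely on BCL-XL.

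Each genotype was represented by 1 array, so the differences carry no error and were not tested. A level is a log2 signal, and a difference is the level on the MHC class II KO array, called the KO array, less the level on the WT array. Levels are compared only between arrays for the same gene, since rows of different genes respond differently to their RNA. Background, set from olfactory receptor rows, lay at log2 signals of 5.94 (WT) and 5.86 (KO), and 14494 genes lay above it on at least 1 array. Their differences had a median of 0.04 and a robust SD of 0.25. For 170 genes with several rows, the gap between the differences of 2 rows of 1 gene had an SD of 0.28. It leaves out any error shared by both rows and the spread between mice. The label of the cells was checked against 13 markers of IL-17-producing Vγ6 cells, and the 10 with a row of their own were above background on both arrays, among them Tcrg-V6 (12.64 on WT, 12.33 on KO). The markers were not all alike on the arrays: the cytokine gene Il17a was 2.97-fold lower on KO (10.85 to 9.28, difference -1.57), and Zbtb16 and Blk each differed by 0.47. The other 9 besides Il17a were within 1.5-fold, while 7.17% of all genes above background were at least 1.5-fold apart.

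Of the 9 measured members, 8 were above background on both arrays and Bbc3 on neither. Bcl2 alone was at least 1.5-fold apart, lower on the KO array, and no member was at least 1.5-fold higher. Of all genes above background, 7.17% were at least 1.5-fold apart, 3.17% lower and 4.0% higher, and a count of 1 among 8 genes is not set apart from that background. All genes split into 580 higher and 459 lower. The split turned to 486 and 533 with differences centred on their median and 477 and 505 after a loess correction. With quantile normalization it did not turn (558 and 454). No member was 2-fold apart, beside 1.95% of all genes, 0.793% higher and 1.15% lower. The median difference of the 8 members was 0.01, and its sign changed with the scaling of the arrays.

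**Figure D1:**
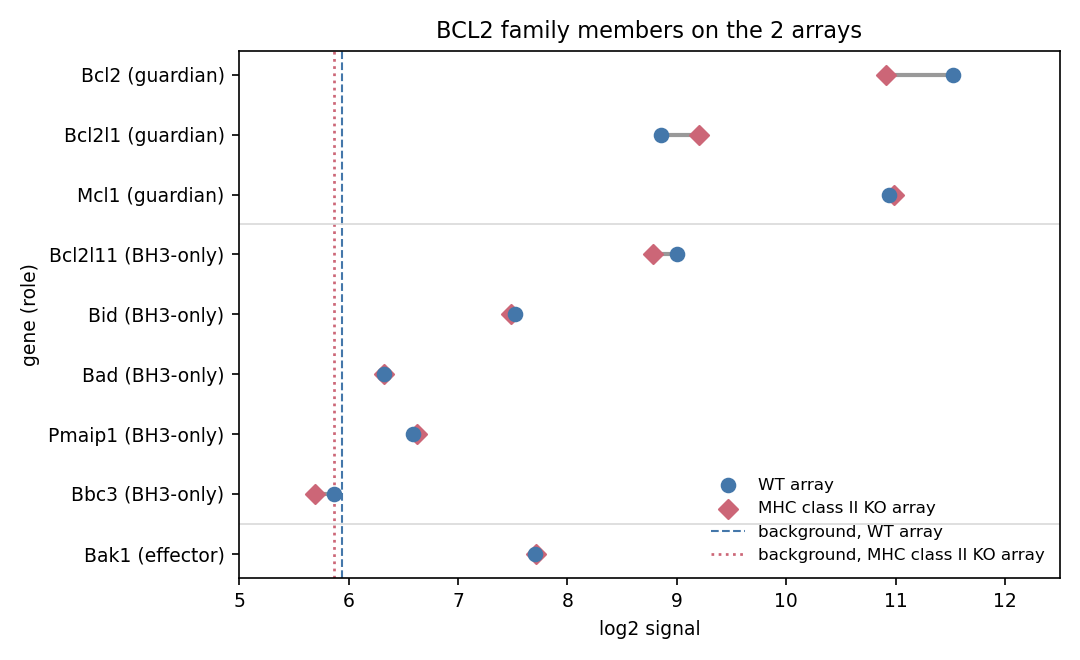
Log2 signal (x axis) of the 9 measured members (y axis, with their roles) on the WT (circles) and MHC class II KO (diamonds) arrays, 1 array each, with vertical lines at each array's background. Bcl2 has the widest gap, from 11.53 on WT to 10.92 on KO, Bcl2l1 lies the other way, and Bbc3 is below both lines.

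Among the guardians, Bcl2 and Bcl2l1 differed in opposite directions and Mcl1 hardly differed. Bcl2, whose protein is the guardian of mature lymphocytes, had a linear signal of 2949.8 in WT and 1931 in MHC class II KO cells. On the log2 scale these are 11.53 and 10.92, a difference of -0.61, or 1.53-fold lower without MHC class II. The WT array was the higher for Bcl2, and both values lay far above background. A difference this low or lower was seen for 419 of the 14494 genes (2.89%), and for 1.5% of the 1068 genes whose mean log2 signal was within 0.5 of that of Bcl2. The value is just past the 1.5-fold threshold, which is 0.58 on the log2 scale.

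Bcl2l1, which encodes BCL-XL, had a linear signal of 462 in WT and 588 in MHC class II KO cells. The KO array was here the higher, by a log2 difference of 0.35 (8.85 to 9.20), or 1.27-fold. Of all genes above background, 12.8% were at least as far in that direction, and of the 1881 genes of like signal 17.4% were. Mcl1 encodes a short-lived guardian that lymphocytes need at most stages. Its signals were 1959.9 and 2026, a log2 difference of 0.05 whose sign changed with the scaling.

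The gap between Bcl2 and Bcl2l1 was seen beside a shift in genes listed as markers of another thymic cell. The list of markers of double positive thymocytes and αβ T cells held 17 genes, of which 12 had a row of their own and 11 were above background on at least 1 array. Their median difference was 0.74, and 8 were at least 1.5-fold higher in MHC class II KO cells, or 7 when values under background are raised to it. Of all genes above background, 4.0% were at least 1.5-fold higher. None was below 0, but Cd4, at 0.57, was just short of 1.5-fold. Satb1 differed by only 0.07 and Cd1d1 by 0.04, the latter with a sign that changed with the scaling. The summed signal of the 12 genes was 15679 on WT and 35284 on KO, mostly from Cd8b1 alone (10633.9 and 27602.5). The CD8 genes Cd8b1 and Cd8a differed by 1.38 and 0.74, Aqp11 by 1.23 and Cd24a by 0.97. Dntt, the gene of the enzyme that adds nucleotides to receptor genes, passed background only on the KO array, where it was at least 3.68-fold higher, while Rag2 was above background on neither. The part of this shift in the values of Bcl2 and Bcl2l1 was not tested. In such bulk samples, fewer cells of a type and less RNA per cell cannot be told apart.

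Of all 30142 genes, 14494 were above background on at least 1 array. A marker below it therefore does not show its cell type to be absent. The markers of other cells a thymus sort could hold were mostly below background. That held on both arrays for 6 of 10 B cell markers, Cd79a, Ms4a1 and Pax5 among them, although Ighm and Ly6d were higher on KO by 1.41 and 1.55, Cd79b differed by 0.11 and Vpreb1, above background on WT alone, was at least 1.07-fold lower. It also held for 11 of 15 dendritic cell and macrophage markers, with Irf8 (1.11) and Cd68 (0.91) higher on KO, Lyz2, not above background on WT, at least 1.23-fold higher, and Siglech at 0.03, a sign that changed with the scaling. Of 7 granulocyte markers 4 were below background on both arrays, while S100a9 and S100a8 differed by -0.46 and -0.33 and Ltf was at least 1.12-fold lower on KO. Of 9 thymic epithelial markers 5 were below it on both. Krt8 and Epcam were at least 1.18-fold and 1.17-fold lower on KO, Ly75 at least 1.07-fold higher, and Ccl25 differed by -0.10. Of 2 red blood cell markers, Hbb-y differed by -0.22 and Alas2 was below background. The summed signals on WT and KO took in all markers with a row, also those below background. They were 16957 and 42881 for the B cell list, mostly from Ighm alone (15562 and 41227). For the dendritic cell and macrophage list they were 952 and 1435. They were 503 and 405 for granulocytes, 519 and 445 for epithelium, and 112 and 101 for red blood cells. Their part in the values of the members was not tested.

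Among the BH3-only members the largest difference was that of Bcl2l11. It encodes BIM, the killer that removes self-reactive thymocytes and lymphocytes deprived of cytokine. Its linear signal was 514 in WT and 440.2 in MHC class II KO cells, a log2 difference of -0.22 (9.01 to 8.78), or 1.17-fold lower. This gap is smaller than the SD of 0.28 between 2 rows of a gene, and 15.8% of all genes above background were as low or lower. That SD is of a gap between 2 differences, not of 1 difference, so it gives no error for this value.

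The other BH3-only members had nearly the same signal on both arrays. Bid, whose protein links death receptors to mitochondria once caspase-8 cuts it, had signals of 184 and 179 (log2 difference -0.04). Bad, which growth factor kinases keep inactive, had 80.2 on both arrays (0.00, sign changing with the scaling). Pmaip1, which encodes NOXA, the partner of MCL-1 and a target of p53, had 96.1 and 98.9 (0.04). Bad and Pmaip1 lay less than 1 log2 unit above background. Bbc3, the gene of the p53-induced killer PUMA, had 58.3 and 51.7, below the background signals of 61.3 and 58.2, so no fold is given. Of the effectors, Bak1 had 209 and 210.3 (log2 difference 0.01, sign changing with the scaling).

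**Figure D2:**
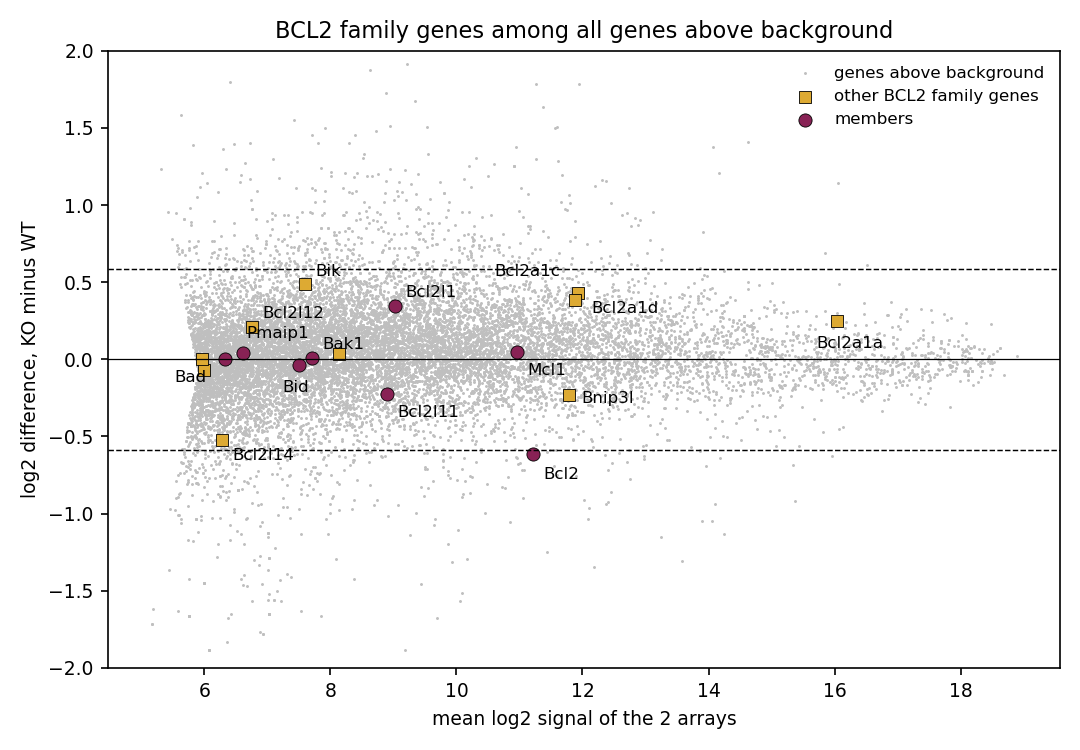
Log2 difference, KO minus WT (y axis), against the mean log2 signal of both arrays (x axis) for the genes above background (grey), the 8 members above it (circles) and 10 other BCL2 family genes above it (squares); dashed lines mark 1.5-fold and 15 grey genes lie beyond the y axis. Bcl2 is the only family gene past a dashed line, at -0.61, and the Bcl2a1 genes lie above 0.

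Of 16 further genes of the family, 15 had a row of their own, 10 were above background and none of the 10 was 1.5-fold apart (median 0.12), beside 7.17% of all genes. The Bcl2a1 genes encode A1, a guardian switched on by NF-κB in activated lymphocytes and myeloid cells. Bcl2a1a went from a log2 signal of 15.92 to 16.17 (difference 0.25), Bcl2a1c from 11.71 to 12.15 (0.43) and Bcl2a1d from 11.68 to 12.07 (0.38). A row that named both Bcl2a1a and Bcl2a1b went from 14.41 to 14.71 (0.30). These rows were all higher on the KO array, the single-gene ones under each scaling, but they are near-identical copies of 1 gene, so their signals may come from shared RNA and are not separate observations. Bcl2l2 and Bcl2l10, the remaining guardians, were not above background.

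Among the BH3-only and BH3-like genes, Bik differed by 0.49 (7.36 to 7.85) and Bcl2l14 by -0.52 (6.55 to 6.03), the latter close to background on KO. Bnip3l, whose protein marks mitochondria for removal, differed by -0.23, Bcl2l12 by 0.21 and Hrk by -0.07. Bnip3 had the same value on both arrays (5.97), and Bmf, a killer held by the cytoskeleton, was not above background. Of the effector-like genes, Bcl2l13 differed by 0.03, with a sign that changed with the scaling, and Bok and Bcl2l15 were not above background.

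Downstream and beside the family, 4 lists of pathway genes held 38 genes with a row, 37 of them above background. None of the 37 was 1.5-fold apart, beside 7.17% of all genes. Differences were above 0 for 27 and below 0 for 10, while 56.4% of all genes were above 0, and the median was 0.17 beside 0.04 for all genes. After the loess correction the median of the 37 was 0.08, with 24 above 0, beside 49.9% of all genes. In the apoptosome and caspase list (11 genes, median 0.07, but -0.02 after the loess correction), Casp6 differed by 0.32, cytochrome c (Cycs), which leaks from opened mitochondria, by 0.30, and Diablo, which relieves the block on caspases, by 0.27. Endog, a mitochondrial nuclease gene, differed by -0.23. In the list of inhibitors of apoptosis proteins (6 genes, median 0.18, or 0.11 after that correction), Birc5, a gene of dividing cells that encodes survivin, differed by 0.52, Naip5 by 0.34, Birc2 by -0.27 and Xiap, the direct caspase inhibitor, by 0.19.

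The partners of the family at mitochondrial and other membranes (11 genes, median 0.17, or 0.08 after the loess correction) included the channel gene Vdac3 at 0.32, the fission gene Fis1 at 0.30, Bcap31 at 0.28 and Opa1 at 0.19. Vdac2, whose protein holds BAK, differed by 0.01, with a sign that changed with the scaling. The death receptor list (9 of 10 genes above background, median 0.16, or 0.07 after that correction) was led by Ripk3 (0.53), the kinase of necroptosis, Tradd (0.47), Tnfrsf1a (0.38) and Cflar (0.35), whose product blocks caspase-8. Casp8 differed by -0.26, and Fasl was not above background.

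**Figure D3:**
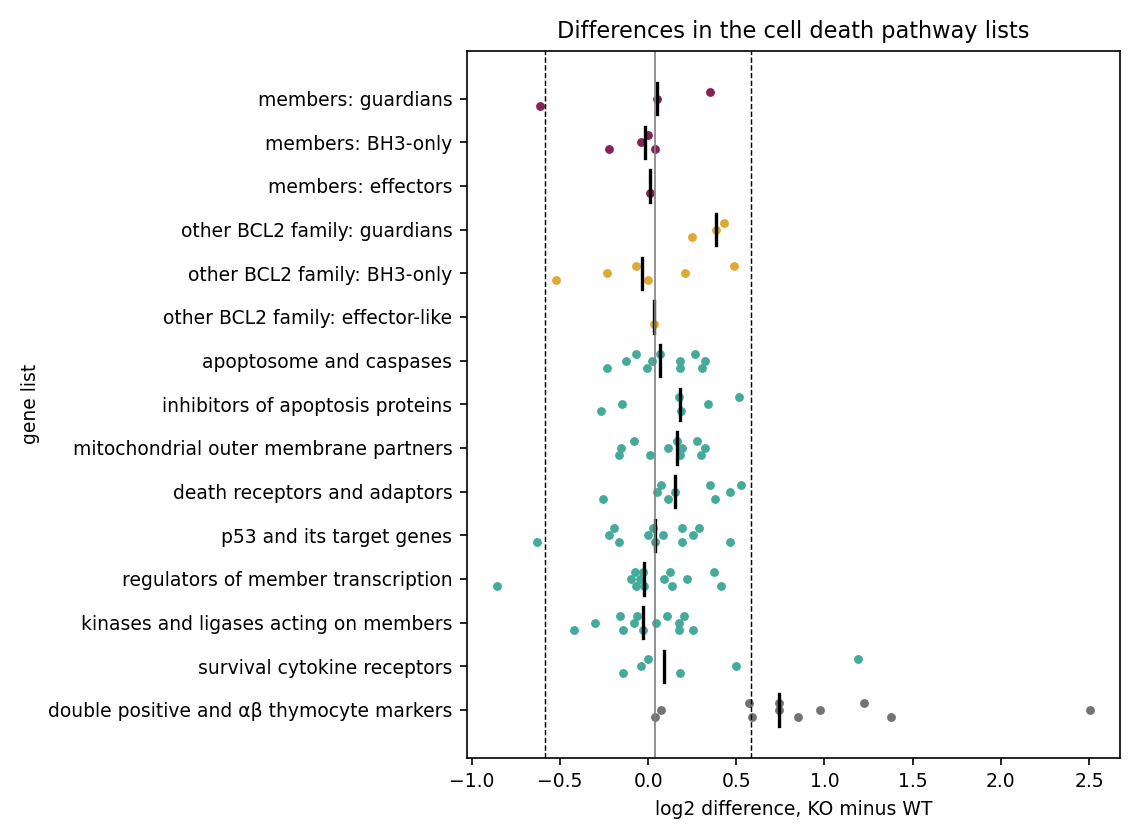
Log2 difference, KO minus WT (x axis), of each gene above background in the family and pathway lists (y axis); points are genes, black bars list medians, the grey line the median of all genes (0.04) and dashed lines 1.5-fold. Most points lie between the dashed lines, with Bcl2, Cdkn1a, Nr4a1 and Il2ra past them, and the thymocyte markers lie to the right with a median of 0.74.

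Genes of the p53 pathway and genes that act on the members were compared in the same way. The p53 list held 13 genes above background, the member Pmaip1 among them but not the gene of p53 itself. Of these 13, Cdkn1a, the cell cycle inhibitor, was 1.55-fold lower on KO (8.22 to 7.59, difference -0.63). None was 1.5-fold higher (median 0.04, from 0.00 to 0.09 over the scalings). Of all genes above background, 7.17% were at least 1.5-fold apart. Ccng1 differed by 0.46, Sesn2 by 0.29 and Trp53inp1 by 0.25. Of 13 transcriptional regulators (median -0.02, or -0.11 after the loess correction), Nr4a1 was 1.81-fold lower (12.89 to 12.03, difference -0.86). The rest were within 1.5-fold. The share of all genes at least 1.5-fold apart was again 7.17%. The product of Nr4a1, NUR77, is induced by T cell receptor signals and can bind BCL-2. Myc and Myb differed by 0.41 and 0.37, and Bcl6, above background on KO alone, was at least 1.16-fold higher there. Foxo3, a factor known to drive Bcl2l11, differed by 0.14, and the interleukin signal factors Stat5a and Stat5b by -0.03 and -0.02.

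None of the 13 kinases and binding partners above background was 1.5-fold apart, beside 7.17% of all genes. Their median was -0.03, or -0.09 after the loess correction. Pim2, the gene of a survival kinase that phosphorylates BAD, differed by -0.42, Mapk9 by -0.30, Dynll2, which tethers BMF, by 0.25 and Dynll1, which tethers BIM, by 0.20. The survival cytokine receptor list held 6 genes, the kinase gene Jak1 among them (median 0.09). The interleukin 7 receptor gene Il7r, upstream of Bcl2 in T cells, was higher on KO by 0.50 (14.76 to 15.26). Its part in the value of Bcl2 was not tested. Il2ra, the interleukin 2 receptor α chain, was higher by 1.19, Jak1 differed by 0.18 and Il2rb by -0.14.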

How the data were processed

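The authors deposited linear intensities for 65956 transcript clusters, from RNA hybridised to 1 array per genotype. The authors used RMA and Affymetrix Expression Console 1.4.1, per the submitters' processing notes. The signals reach 480711 and 487523, beyond what a scanner reads directly. The sources used here do not give the step behind that, which could widen or narrow every fold.

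The log2 of each intensity was taken with numpy 2.4.6. Symbols came from the platform annotation, updated by gene identifier through RefSeq's gene table of GRCm38.p6 (22815 rows matched). Rows with several symbols or none entered no gene count, and the brightest row stood for a gene. Each array's background was set at the 95th percentile of its 1228 olfactory receptor rows. A gene above it on 1 array has a bound as its fold.

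The members, the lists and the 1.5-fold threshold were chosen with earlier results of these data known. All members and other family genes are named, and of each other list up to 4 genes with the largest absolute difference; the other genes named were chosen after their values were seen. The procedure was tested on simulated data. The alternatives were 3 other scalings, values under background raised to it, the mean of a gene's rows, 3 other background filters and a 2-fold threshold.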

Additional observations from a re-analysis of the deposited data

How the results depend on the processing

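With 1 array per genotype, stability was judged only across 9 alternatives. A difference was taken as moved when it shifted by at least the SD of 0.28 between 2 rows of a gene. A count was taken as moved when it changed more than 1.5-fold, or to or from 0. The shifts of the member differences were far smaller than 0.28, so the rule for differences marked none of them. Across the alternatives that rescale or refilter the arrays, the difference of Bcl2 ran from -0.68 to -0.61, that of Bcl2l1 from 0.26 to 0.35 and that of Bcl2l11 from -0.31 to -0.22. These genes have 1 row each, well above background, so only the 3 other scalings could change those differences. With that limit, Bcl2 remained the 1 member at least 1.5-fold lower in each of these alternatives, with none higher. The median member difference ran from -0.04 to 0.01. With a 2-fold threshold 0 members were lower, beside 115 genes higher and 167 lower among all genes. With background at the 99th percentile, 288 of all genes were at least 1.5-fold lower in place of 459, from fewer genes kept (11069), and 6 members were kept. Low signal limits Bad, Pmaip1 and Bbc3. No paired analysis was possible because each genotype had 1 array.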

Other observations

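Some genes had exactly the same value on both arrays. This was so for 106 of the 14494 genes above background (0.731%), the family gene Bnip3 and the pathway genes Mdm4 and Il15ra among them, and for 845 of the 65956 rows.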
